A study of Mus musculus with 5 samples.

Results

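The Reelin pathway was represented by 5 genes: the ligand Reln, the receptors Vldlr and Lrp8, the adaptor Dab1 and the kinase Fyn. These 5 were followed among the 32286 features counted in 5 mouse synovial sarcoma (SyS) tumors. Reln was selected on its large rise in tumor cells in earlier results of these same data, so its levels in tumor cells against other cells are given as a description without a test. The other 4 genes were chosen by their place in the pathway. Reelin is a large secreted glycoprotein that binds the lipoprotein receptors VLDLR and ApoER2, the latter encoded by Lrp8. Receptor clustering brings the intracellular adaptor DAB1 to Src-family kinases, chiefly FYN, which phosphorylate it. The pathway is best known for guiding neuronal positioning in the developing cortex and cerebellum, and Reelin is also made by lymphatic endothelium.

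All 5 tumors arose in mice expressing human SS18::SSX2 (hSS2), switched on, per the study's methods, by TATCre protein injected into a limb in early postnatal life, so that recombination was not limited by a cell-type promoter. The dissociated tissue was profiled by droplet 3′ single-cell RNA sequencing (scRNA-seq). The histology labels were BP for 2 tumors (replicates 1 and 2) and MP, MP+BP and PD+MP for 1 tumor each, the abbreviations standing in the study for biphasic (BP), monophasic (MP) and poorly differentiated (PD) histology. The study used mice of both sexes and a mixed strain, aged a few months, with harvest at morbidity; the sex and age behind each tumor, and whether the BP tumors came from 1 animal, are not given in the sources used here, there was no normal tissue control, and no tumor lacked the fusion. Histology was read on tissue next to the dissociated piece, not on the cells profiled.

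The libraries held 89996321 to 118649103 unique molecular identifier (UMI) counts, each standing for a captured transcript. Between 6328 and 9486 cells per tumor, 39559 in all, passed the filters. Cells were clustered without using any gene of the Reelin pathway list, and 12 of 29 clusters were called SyS-like from tumor markers such as Tle1, Sox2 and Epcam. The 12 clusters held 24786 cells, from 54.4% to 79.0% of the cells kept per tumor. Summed over the 13 tumor markers, the level was 2841 to 4388 UMIs per 1000000 UMIs of the sum (CPM) in SyS-like sums and at most 1632 CPM in any other named sum, although only 4 of the 13 markers were by themselves above every other sum, and Cbln4 had a median of only 3.67 CPM. A feature named EGFP, which was not used for naming, had 30.6 to 42.8 CPM in SyS-like sums and at most 15.5 CPM in the other named classes. The comparison classes were macrophage-like cells (2809), endothelial-like cells (2287) and stromal cells (1416), the last made of 1236 pericyte-like and 180 fibroblast-like cells, and all 8 markers of the macrophage-like, endothelial-like and pericyte-like classes were above every other sum. Each pair of libraries shared 15 to 33 cell barcodes.

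The 5 genes lie apart in the mouse genome (GRCm38, which is mm10). Reln (ENSMUSG00000042453) occupies chromosome 5 from 21884454 to 22344702 on the minus strand, and Dab1 (ENSMUSG00000028519) occupies chromosome 4 from 103619359 to 104744844 on the plus strand. Lrp8 (ENSMUSG00000028613) is also on chromosome 4, at 107802261 to 107876840, Fyn (ENSMUSG00000019843) is on chromosome 10 at 39368855 to 39565381, and Vldlr (ENSMUSG00000024924) is on chromosome 19 at 27216484 to 27254231, all on the plus strand. Dab1 at 1125 kb and Reln at 460.2 kb are longer than 99.9% and 99.1% of the annotated features counted. Whether reads in introns were counted is not given in the sources used here. Antisense genes overlap Reln, Lrp8 and Fyn, and were counted under their own names.

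The sequence before the RefSeq start of Reln is shown because the report turns on that gene, and that of the first Vldlr start is shown beside it because Vldlr is the receptor that was not called against stromal cells. Both windows are 250 bases long, read 5′ to 3′ on the gene's strand, overlap no annotated exon, and have their CG dinucleotides in capitals. The Reln window is chr5:22344706-22344955 (minus strand) and the Vldlr window is chr19:27216234-27216483 (plus strand), both RefSeq on GRCm38.p6.
Reln: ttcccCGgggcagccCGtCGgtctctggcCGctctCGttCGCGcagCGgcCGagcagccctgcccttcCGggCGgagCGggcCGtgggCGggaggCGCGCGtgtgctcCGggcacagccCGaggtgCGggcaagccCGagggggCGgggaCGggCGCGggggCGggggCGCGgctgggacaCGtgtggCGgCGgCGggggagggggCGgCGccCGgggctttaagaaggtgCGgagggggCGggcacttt
Vldlr: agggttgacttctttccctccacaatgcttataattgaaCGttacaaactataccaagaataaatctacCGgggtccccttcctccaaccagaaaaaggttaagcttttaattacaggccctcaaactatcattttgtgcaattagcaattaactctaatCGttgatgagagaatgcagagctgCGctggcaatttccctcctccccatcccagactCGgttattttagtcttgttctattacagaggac
The Reln window held 37 CG dinucleotides, a number reached by 2.20% of 32851 windows of the same length before RefSeq starts, against 5 in the Vldlr window, reached by 55.6%. The median over all windows was 6. The windows of the other starts held 40 and 10 (Dab1), 18 (second Vldlr), 18, 5 and 2 (Lrp8) and 21 (Fyn), and each of these overlapped an annotated exon in part. Counting CG letters describes these windows only and says nothing of methylation or binding.

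Reln, the secreted ligand, was present in the SyS-like cells of every tumor and was low in stromal, endothelial-like and macrophage-like cells. Summed over SyS-like cells it measured 232 CPM in BP replicate 1, 156 CPM in BP replicate 2, 519.9 CPM in MP, 381 CPM in MP+BP and 283 CPM in PD+MP, a mean of 314 ± 141 CPM (SD, n = 5). The MP tumor was highest and both BP tumors were lowest, with a 3.33-fold span from BP replicate 2 to MP. Stromal sums held 5.63 to 14.98 CPM, endothelial-like sums 3.34 to 16.8 CPM and macrophage-like sums 3.45 to 15.7 CPM. No SyS-like value overlapped a value of these classes, which is what the choice of the gene fixes. Within a tumor the SyS-like level was 26.4 to 41.1 times the stromal level, 16.8 to 78.8 times the endothelial-like level and 24.4 to 67.1 times the macrophage-like level. The fitted log2 differences, given as a description, were 4.77 over stromal, 5.40 over endothelial-like and 4.71 over macrophage-like sums. Reln was detected in 60.4% to 89.2% of SyS-like cells as deposited, at median depths of 8656.5 to 12608.5 UMIs per cell. After each cell was thinned to 2000 UMIs, which left out 573 shallower cells, it was detected in 21.2% to 50.8% of them. Macrophages are not known to make Reln and were used as the class that should lack it: 2.00% to 9.02% of macrophage-like cells held a Reln UMI at median depths of 4339 to 7216, and 0.782% to 3.46% did after thinning.

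Free RNA from lysed tumor cells can enter the droplets of other cells, so the Reln level in macrophage-like sums was set against that of the tumor markers. It was 1.49% to 4.11% of the SyS-like level of the same tumor, and the median of the tumor markers with at least 20 CPM in SyS-like sums was 1.62% to 4.47%. In endothelial-like sums Reln was 1.27% to 5.95% of the SyS-like level, with marker medians of 2.66% to 7.34%, and in pericyte-like sums it was 0% to 3.79%, with marker medians of 1.92% to 6.45%. The range for Reln overlapped that of the tumor marker medians in each of these classes. Single markers spread more widely, from 0.41% to 38.5% in macrophage-like sums. The source of the Reln UMIs in these classes was not tested. The endothelial-like sums pool cells with and without a UMI of the lymphatic markers Prox1, Mmrn1 or Ccl21a. Reln was 8.20 CPM with and 2.20 CPM without such a UMI in BP replicate 1, from 7 and 8 Reln UMIs. It was 20.5 and 1.22 CPM in BP replicate 2 (12 and 3 UMIs), and 18.2 and 7.22 CPM in MP (10 and 28 UMIs). In MP+BP the levels were close, at 4.93 and 4.82 CPM (2 and 11 UMIs). In PD+MP the 5 cells with such a UMI held 0 of 8 Reln UMIs. These differences were not tested. The highest level of any other named class was in neutrophil-like cells of MP, 240.5 CPM from 12 UMIs in 23 cells.

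**Figure D1:**
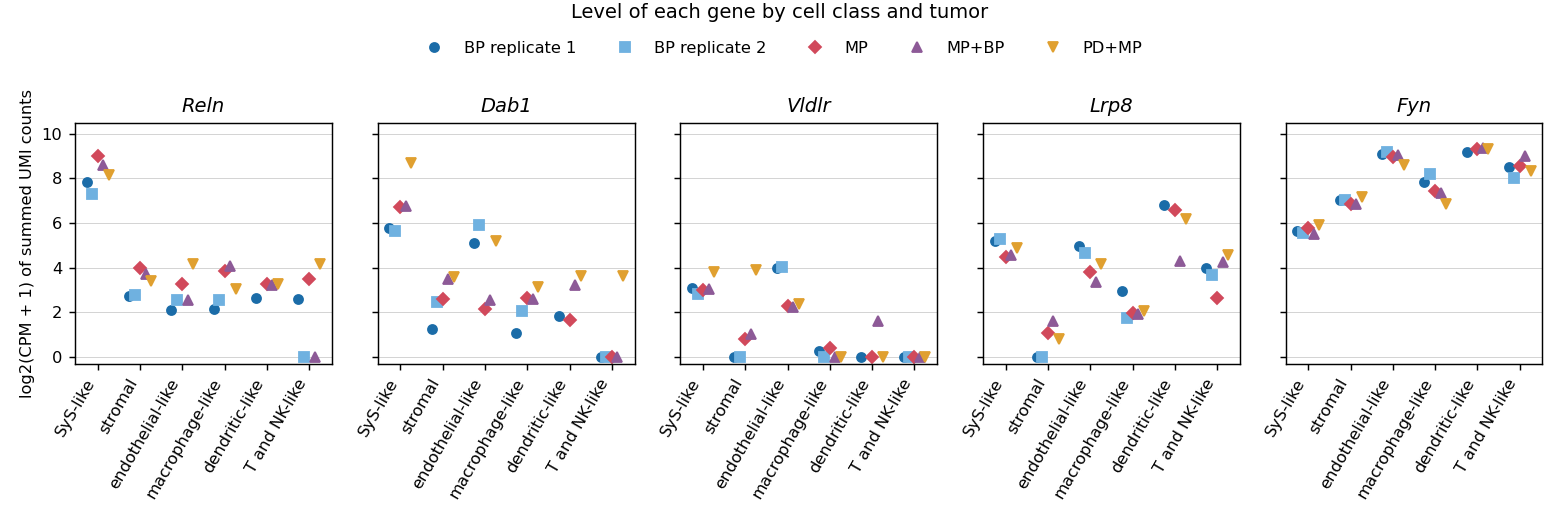
Level of each gene as log2(CPM + 1) of UMI counts summed over the cells of a class in 1 tumor (y axis) against cell class (x axis); each point is 1 tumor, and classes with under 20 cells in a tumor are left out. Among the 6 classes drawn, Reln is highest in SyS-like cells of all 5 tumors, at 156 to 519.9 CPM, while Fyn is lowest there, at 43.9 to 58.8 CPM.

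Dab1, the adaptor that Src-family kinases phosphorylate, was high in the SyS-like class, as Reln was, with the widest range of the 5 genes. It measured 54.0 CPM in BP replicate 1, 48.7 CPM in BP replicate 2, 105 CPM in MP, 106 CPM in MP+BP and 410.4 CPM in PD+MP (mean 145 ± 151 CPM, SD, n = 5). PD+MP stood apart from the other 4 tumors, whose values lay within a range of 48.7 to 106 CPM. After thinning to 2000 UMIs, 47.9% of PD+MP SyS-like cells held a Dab1 UMI, with a 95% exact binomial interval of 46.6% to 49.2%, against 8.65% to 17.5% in the other tumors. Such intervals cover counting error only. Dab1 rose over stromal sums by 4.10 ± 0.31 on the log2 scale (SE, edgeR quasi-likelihood test, adjusted p = 7.4e-06) and over macrophage-like sums by 4.28 ± 0.28 (edgeR, adjusted p = 2.0e-07). SyS-like cells were higher than both classes in 5 of 5 tumors.

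Endothelial-like cells were the exception for Dab1. They held 33.6 CPM in BP replicate 1, 60.1 CPM in BP replicate 2 and 35.7 CPM in PD+MP, against 3.39 CPM in MP and 4.84 CPM in MP+BP. In BP replicate 2 the endothelial-like level was above that of the SyS-like cells, and over the 5 tumors the difference of SyS-like from endothelial-like sums, 2.25 ± 1.05 (SE, log2), was not called (edgeR, adjusted p = 0.14). The BP values rested on 151 UMIs in 600 cells and 183 UMIs in 528 cells, with 95% Poisson intervals of 28.4 to 39.4 CPM and 51.7 to 69.5 CPM. The MP value, from 15 UMIs in 605 cells, had an interval of 1.90 to 5.59 CPM. The PD+MP value rested on 17 UMIs in 75 cells, all in 6 cells. Only 1 of these 6 held 2 or more, so most of the UMIs lay in 1 cell. Relative to the SyS-like level of the same tumor, Dab1 in endothelial-like cells was 62.1% and 124% in the BP tumors and 3.23%, 4.57% and 8.71% in MP, MP+BP and PD+MP, where the tumor marker medians were 3.41%, 7.34%, 2.66%, 2.87% and 4.15% in the same order.

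Reelin signaling is known in lymphatic vessels, and the lymphatic markers fixed for the class naming (Prox1, Lyve1, Mmrn1, Flt4, Ccl21a and Pdpn) were read in the same cells. Their summed level was 115, 117, 96.7, 87.5 and 63.0 CPM in BP replicate 1, BP replicate 2, MP, MP+BP and PD+MP. Cells were then split on Prox1, Mmrn1 and Ccl21a alone. In the BP tumors, the 546 and 484 endothelial-like cells with no UMI of Prox1, Mmrn1 or Ccl21a held 129 of 151 and 132 of 183 Dab1 UMIs, at 35.4 and 53.7 CPM, and at this depth such cells cannot be called non-lymphatic. In cells with such a UMI, Dab1 was 25.8 CPM (54 cells) and 87.3 CPM (44 cells). Vldlr, encoding a receptor upstream of DAB1, was like Dab1 higher in the endothelial-like cells of the BP tumors, at 14.9 and 15.1 CPM. Vldlr was at 3.84, 3.72 and 4.20 CPM in those of MP, MP+BP and PD+MP, from 17, 10 and 2 UMIs. The 2 UMIs in PD+MP are too few to tell whether Vldlr departed from Dab1 there. Lrp8 was also highest in the BP tumors, with 30.2 and 24.0 CPM against 12.9, 9.31 and 16.8 CPM. These differences between tumors were not tested, as a label had at most 2 tumors, and animal, dissociation and label cannot be told apart.

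**Figure D2:**
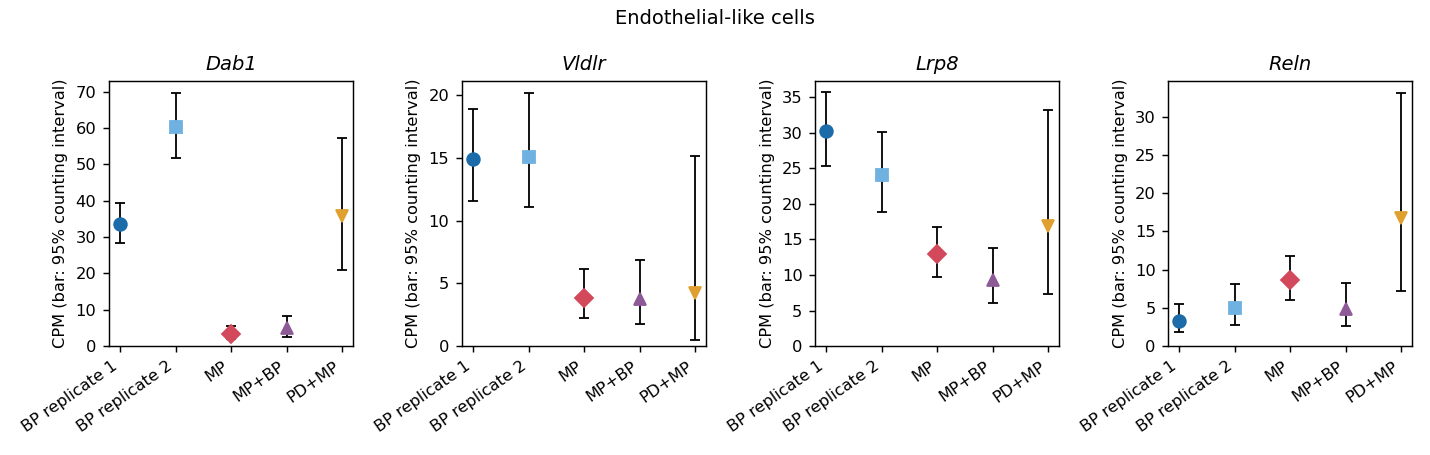
CPM of UMI counts summed over the endothelial-like cells of each tumor (y axis, linear from 0) for Dab1, Vldlr, Lrp8 and Reln; bars are 95% Poisson intervals of the count. Dab1 is at 33.6 and 60.1 CPM in the BP tumors, at 3.39 and 4.84 CPM in MP and MP+BP, and at 35.7 CPM in PD+MP. The PD+MP value rests on 17 UMIs, most of them in 1 cell.

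Vldlr, encoding the very low density lipoprotein receptor, was sparse in tumor cells. SyS-like sums held 7.54, 5.98, 7.08, 7.12 and 13.2 CPM in BP replicate 1, BP replicate 2, MP, MP+BP and PD+MP, and PD+MP was again above the rest, which spanned 5.98 to 7.54 CPM. Stromal sums held 0 UMIs in both BP tumors and 2, 1 and 19 UMIs in the MP, MP+BP and PD+MP tumors. The 19 UMIs all came from the fibroblast-like cells of PD+MP, at 17.1 CPM in 128 cells, and the pericyte-like cells of that tumor held 0. The difference over stromal sums was 1.92 ± 0.75 (SE, log2) and was not called (edgeR, adjusted p = 0.085). Without PD+MP it was 3.56 and called (edgeR, adjusted p = 4.9e-04), and against pericyte-like cells alone it was 4.22 and called (edgeR, adjusted p = 6.3e-05). Against endothelial-like sums the difference was -0.25, with a 95% interval of -1.19 to 0.68 (edgeR, adjusted p = 0.64), and it turned positive, to 0.10 and 0.16, without either BP tumor. Over macrophage-like sums, which held 2 Vldlr UMIs in 2809 cells, Vldlr rose in 5 of 5 tumors (edgeR, adjusted p = 3.1e-06), with a fitted difference of 5.50 that depends on the prior count and is no bound.

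Lrp8 encodes ApoER2, the other Reelin receptor. It measured 35.2 and 38.2 CPM in the BP tumors, 21.4 CPM in MP, 22.4 CPM in MP+BP and 28.5 CPM in PD+MP, the narrowest span after Fyn at 1.79-fold. The order of the tumors was not that of Reln, as both BP tumors were highest for Lrp8 and lowest for Reln. Stromal sums held 6 Lrp8 UMIs in all, 0 of them in the BP tumors, and Lrp8 rose over them in 5 of 5 tumors (edgeR, adjusted p = 1.1e-04). The fitted size of 4.78 ± 0.53 (SE, log2) rests on those few counts. Lrp8 also rose over macrophage-like sums, by 2.56 ± 0.25 (SE, log2; edgeR, adjusted p = 1.5e-06). The rise over endothelial-like sums was small, 0.50 ± 0.19 (SE, log2; edgeR, adjusted p = 0.046), where the median of all genes tested was itself at 0.18. That call was lost under 8 of 13 alternative settings, leaving out BP replicate 2, MP, MP+BP or PD+MP among them, with adjusted p-values from 0.0081 to 0.25 over the 13. Dendritic-like cells held Lrp8 above the SyS-like level in BP replicate 1, MP and PD+MP but not in MP+BP, at 109.7, 95.4, 18.4 and 71.9 CPM in BP replicate 1, MP, MP+BP and PD+MP.

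Fyn, the Src-family kinase that phosphorylates DAB1, went the other way. SyS-like sums held 49.1, 46.3, 54.0, 43.9 and 58.8 CPM, the most even of the 5 genes across tumors. Stromal sums held 113 to 142 CPM, macrophage-like sums 116 to 288 CPM and endothelial-like sums 391 to 584 CPM, and none overlapped the SyS-like values. Fyn fell in SyS-like cells by 1.56 ± 0.14 against stromal (edgeR, adjusted p = 2.9e-05), by 2.39 ± 0.23 against macrophage-like (edgeR, adjusted p = 3.6e-06) and by 3.53 ± 0.20 against endothelial-like sums (edgeR, adjusted p = 1.0e-07; all SE, log2). It was lower in 5 of 5 tumors in each comparison, and every alternative setting kept all 3 calls. The level differed 2.10-fold to 2.84-fold from stromal and 6.64-fold to 12.6-fold from endothelial-like cells within a tumor. Lymphocytes are known for FYN in antigen receptor signaling, and T and NK-like cells held 256 to 511 CPM. Dendritic-like cells held more, at 583 to 666 CPM. Neutrophil-like cells, with 5 Fyn UMIs in 164 cells, held 0 to 15.5 CPM, below the SyS-like values.

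Against these members stands the share of all genes called. Among genes that did not serve as clustering features, 17.9% were called higher and 9.28% lower in SyS-like over stromal sums, 31.1% higher and 18% lower over endothelial-like sums, and 39.1% higher and 21% lower over macrophage-like sums (edgeR, adjusted p under 0.05). Of the 4 genes other than Reln, 2 were higher and 1 lower over stromal, 1 higher and 1 lower over endothelial-like, and 3 higher and 1 lower over macrophage-like sums. With tumor totals alone in place of TMM (trimmed mean of M-values) scaling, 80.8%, 73.6% and 82.9% of the calls outside the clustering features were higher, against 65.8%, 63.4% and 65.1%. The median log2 difference over all genes tested was 0.17, 0.18 and 0.29 in the 3 comparisons, and the members' differences are read against these. Long genes moved more: among genes of at least 200 kb outside the clustering features the medians were 0.43, 0.63 and 1.32, and 31.4%, 45.0% and 60.3% were called higher, which touches Reln and Dab1. When doublets were kept, differences of Reln, Dab1 and Lrp8 over stromal sums shrank to 2.07, 2.07 and 2.46 and stayed called for Dab1 and Lrp8 (edgeR, adjusted p = 0.0012 and 0.0014), and those of Reln and Dab1 over endothelial-like sums to 2.22 and 1.36.

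**Figure D3:**
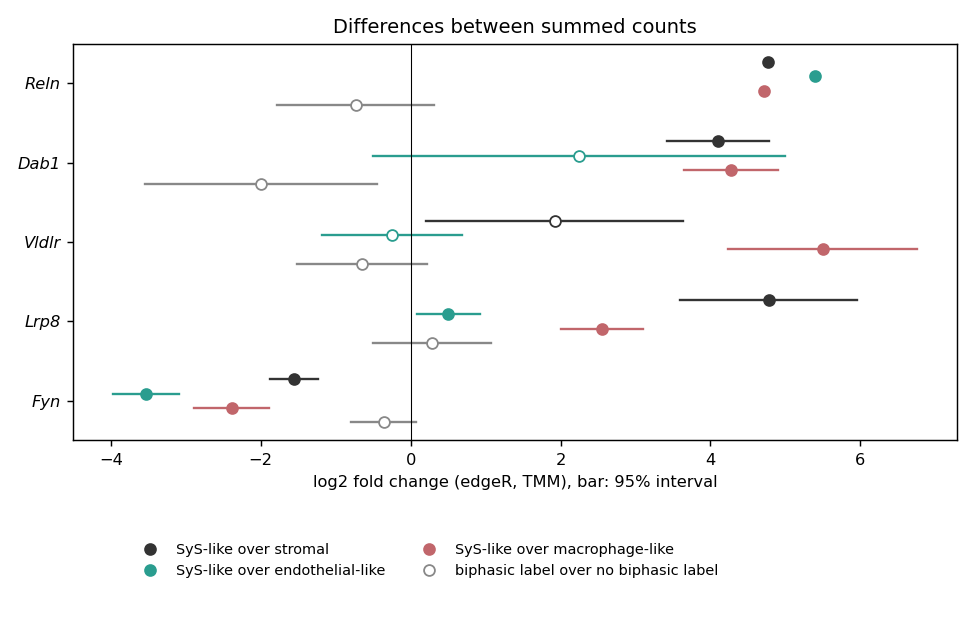
Log2 fold change of the 5 genes (x axis) in the 3 comparisons of SyS-like cells with another class and in the comparison of tumors with and without a BP label; bars are 95% intervals, filled points were called by edgeR (adjusted p under 0.05), and Reln between classes is shown filled without a bar because it was not tested. Dab1 and Lrp8 lie to the right of 0 and Fyn to the left against stromal and macrophage-like cells.

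The wider pathway list held 43 further genes, all of which were tested, and over stromal sums 9 were higher, 14 lower and 20 not called, with a median log2 difference of -0.17. Among genes outside the clustering features, 17.9% were called higher and 9.28% lower in that comparison. Of the 5 genes of enzymes that cleave Reelin, 5 were lower in SyS-like cells, although Adamts5 lost its call under 7 alternative settings. The metalloproteinase genes Adamts4 and Adamts2 fell by 8.03 ± 0.38 and 6.77 ± 0.86, and Plat, encoding tissue plasminogen activator, fell by 6.21 ± 0.26 (SE, log2; edgeR, adjusted p = 1.2e-06, 0.0038 and 1.4e-07). Plat held 253 to 431 CPM in stromal sums and 3.99 to 8.41 CPM in SyS-like sums. Adamts3, a main Reelin-cleaving enzyme of the brain, was nearer, at 6.12 to 24.6 CPM in stromal sums and 2.95 to 6.48 CPM in SyS-like sums. Against endothelial-like cells 3 of these 5 were lower and Adamts3 was higher, and against macrophage-like cells Adamts2 and Plat were higher. The shares of genes outside the clustering features were 31.1% higher and 18% lower over endothelial-like sums, and 39.1% higher and 21% lower over macrophage-like sums.

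Among the other Src-family kinases that can phosphorylate DAB1, Yes1 was higher over stromal sums by 0.75 ± 0.19 (edgeR, adjusted p = 0.014) and Src lower by 1.33 ± 0.18 (SE, log2; edgeR, adjusted p = 4.1e-04). Yes1 measured 53.4 to 101 CPM in SyS-like and 28.9 to 42.8 CPM in stromal sums, but lost its call without either BP tumor and with SyS-like sums thinned (edgeR, adjusted p = 0.061, 0.054 and 0.063). Of 17 downstream signaling genes, 2 were higher and 4 lower, where 17.9% and 9.28% of genes outside the clustering features were: Pik3cb, a catalytic PI3-kinase subunit, rose by 1.73 ± 0.39, while Limk1, the kinase that inactivates cofilin, and Pik3r1, a regulatory PI3-kinase subunit, fell by 1.19 ± 0.26 and 1.18 ± 0.31 (SE, log2; edgeR, adjusted p = 0.0073, 0.0070 and 0.021). The adaptor genes Crk and Crkl, which bind phosphorylated DAB1, were not called. Among adhesion genes, Itga3, encoding the integrin subunit that binds Reelin, rose by 3.37 ± 0.63 from 4 UMIs in all stromal sums, and its partner Itgb1 fell by 1.35 ± 0.20 (SE, log2; edgeR, adjusted p = 0.0026 and 6.1e-04).

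Of 8 genes of receptor and adaptor turnover, 2 were higher, 1 was lower and 5 were not called, near the shares of all genes. Mylip, encoding the ubiquitin ligase that degrades both Reelin receptors, fell by 1.21 ± 0.20, and Socs7 and Socs6, encoding ubiquitin ligase adaptors, rose by 1.01 ± 0.19 and 0.86 ± 0.25 (SE, log2; edgeR, adjusted p = 0.0012, 0.0029 and 0.027). Other secreted ligands of the same receptors differed among themselves. Spon1, encoding F-spondin, fell by 4.29 ± 0.47, Clu, encoding clusterin, rose by 3.08 ± 0.29 and Apoe rose by 0.85 ± 0.22 (SE, log2; edgeR, adjusted p = 7.3e-04, 3.0e-05 and 0.015), though Apoe lost its call under 5 alternative settings and was at -0.31 when doublets were kept, the only one of them with a negative value. Of the relatives outside the pathway, Lrp2, the large endocytic receptor megalin, rose by 4.69 ± 0.34 and Lrp1 fell by 2.17 ± 0.23 (SE, log2; edgeR, adjusted p = 5.8e-06 and 8.2e-05). Lrp2 held 34.1 to 70.2 CPM in SyS-like sums and 0.365 to 4.43 CPM in stromal sums. Dab2, the Dab1 relative that serves endocytosis, held 0.977 to 4.94 CPM in SyS-like sums and 745 to 975 CPM in macrophage-like sums.

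**Figure D4:**
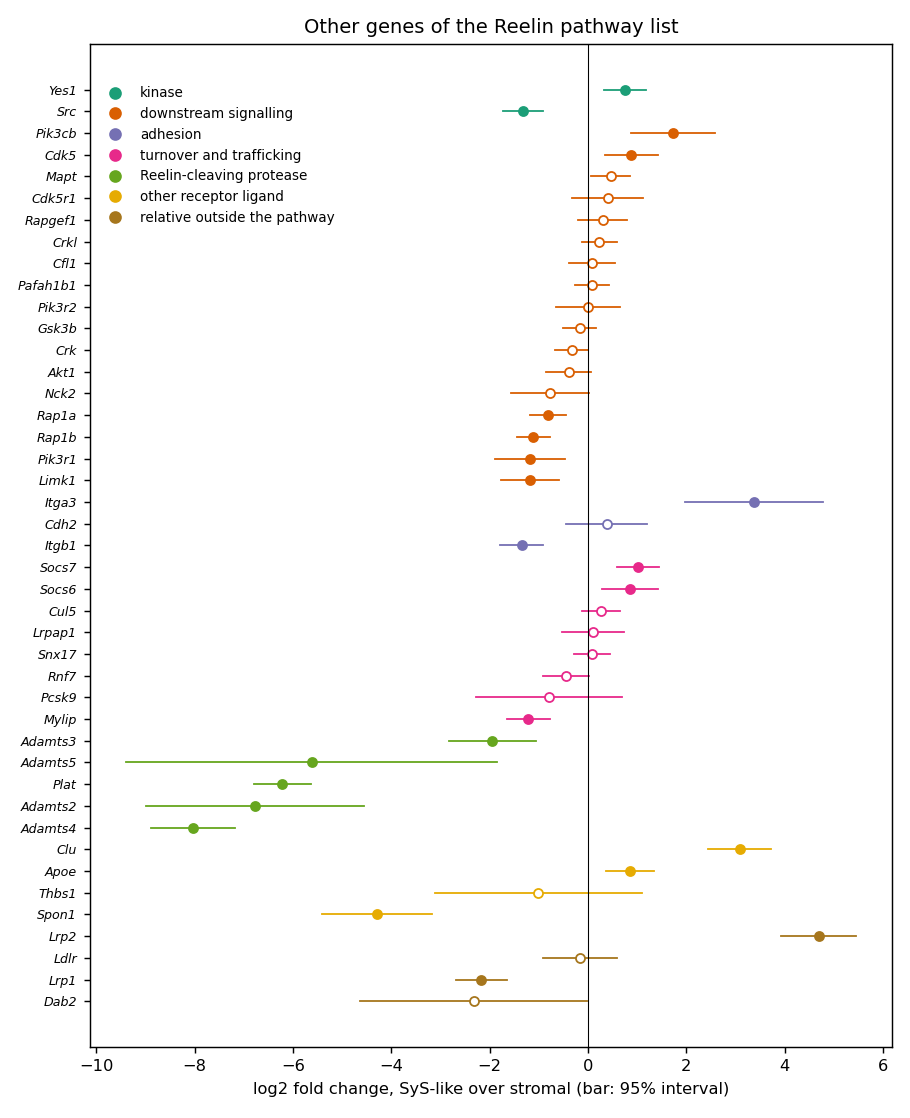
Log2 fold change of SyS-like over stromal sums (x axis) for the 43 further genes of the pathway list, colored by role; bars are 95% intervals and filled points were called by edgeR (adjusted p under 0.05). The 5 genes of Reelin-cleaving proteases all lie left of 0, while Lrp2, Itga3 and Clu lie farthest to the right.

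Tumors with a BP label (both BP tumors and MP+BP) were compared with those without one (MP and PD+MP), using SyS-like sums. No gene was called among the 18052 tested outside the clustering features, 0% higher and 0% lower (edgeR, lowest adjusted p over all genes = 0.44). Before adjustment 681 of them were higher and 728 lower (edgeR, p under 0.05), and DESeq2 called 303. Reln was 0.73 lower with the label (95% interval of the log2 difference -1.78 to 0.31; edgeR, adjusted p = 0.62), and its values of 156 to 381 CPM overlapped those of 283 and 519.9 CPM. Dab1 had the largest difference of the members, -1.99 with an interval of -3.54 to -0.45 (edgeR, adjusted p = 0.55), and without PD+MP it was -0.63 (edgeR, adjusted p = 0.71). Vldlr differed by -0.65 (-1.51 to 0.22), Lrp8 by 0.28 (-0.51 to 1.07) and Fyn by -0.36 (-0.79 to 0.07), all not called (edgeR, adjusted p = 0.61, 0.79 and 0.59). The intervals leave room for differences of over 2-fold in Reln. Leaving out MP brought 358 genes outside the clustering features past the threshold, and 0 members were among them (edgeR).

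Within tumors, Reln varied 1.21-fold to 6.32-fold between SyS-like clusters. In BP replicate 1 it ran from 77.0 CPM in cluster 4, led by Ecrg4, En1 and Bex1, to 487 CPM in cluster 18, led by the epithelial junction genes Cdh1 and Cldn7 with Rab25, a 6.32-fold range over 7 clusters. In BP replicate 2 the lowest cluster was also cluster 4, at 74.6 CPM, and the other 3 held 163 to 189 CPM. Cluster 18 was found with at least 20 cells in 1 other tumor, MP+BP, where its 387 CPM lay within the 354 to 428 CPM of that tumor's clusters. Dab1 had the same extremes in BP replicate 1, 24.5 CPM in cluster 4 and 91.7 CPM in cluster 18, while Lrp8 was at 42.8 CPM in cluster 0 and 21.5 CPM in cluster 18. Clusters led by mitotic genes (10, 12 and 15) held 251 to 518 CPM of Reln outside the BP tumors, and none was the highest cluster of MP, MP+BP or PD+MP. Such a cluster was the lowest of MP+BP (cluster 10, 354 CPM) and of PD+MP (cluster 15, 251 CPM). By contrast, cluster 12 was the highest of BP replicate 2 (189 CPM) and cluster 10 the second highest of BP replicate 1 (366 CPM, 58 cells). These values are descriptions, since cells of 1 tumor are not replicates, and cluster 4 had lower median depth (8753.5 and 6876 UMIs) than cluster 0 (17844.5 and 15180). Cluster 11 of the same tumors, at 8544.5 and 8700.5 UMIs, held Reln at 178 and 172 CPM. The part of depth in these levels was not tested.

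**Figure D5:**
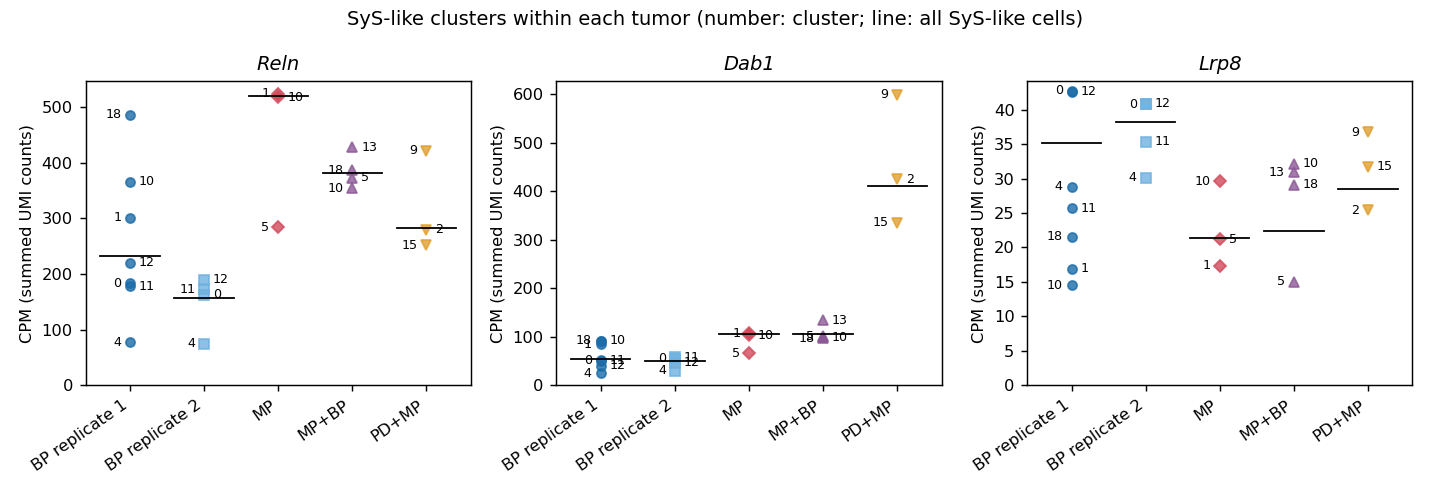
CPM of Reln, Dab1 and Lrp8 (y axes, linear from 0) in each SyS-like cluster of at least 20 cells, by tumor (x axis); numbers name the clusters and black lines give the level over all SyS-like cells of the tumor. Reln spans 77.0 to 487 CPM between clusters of BP replicate 1, and Dab1 is at 334 CPM or above in all 3 clusters of PD+MP.

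Not all cells with abundant Reln were named SyS-like. Cluster 7, with 2254 cells in all 5 tumors, was led by Mgp, Bmp5, Sst and Penk and carried 6 tumor markers, but stayed unnamed because the fibroblast marker Col1a1 was among its leading genes. It held Reln at 231, 243, 535, 297 and 310.5 CPM in BP replicate 1, BP replicate 2, MP, MP+BP and PD+MP, against SyS-like levels of 232, 156, 519.9, 381 and 283 CPM. Dab1 there was 123, 122, 202, 103 and 246 CPM. Lrp8 was lower than in SyS-like cells of the same tumor in 5 of 5 tumors, at 6.92 to 11.7 CPM. The shallow unnamed cluster 8, led by mitochondrial genes and Lars2 at a median of 2196 UMIs, held Reln at 974 CPM in MP, 599.6 CPM in MP+BP, 483 CPM in BP replicate 1 and 192 CPM in BP replicate 2. Naming clusters by marker count alone left the Reln difference over stromal sums at 4.77 and changed no call of Dab1, Lrp8 or Fyn over stromal sums.

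Whether cells with Reln also carried the other members was read in SyS-like cells thinned to 2000 UMIs. Dab1 was found in more of the cells with a Reln UMI than of those without in 5 of 5 tumors, by 3.32, 2.07, 3.41, 3.79 and 7.67 percentage points in BP replicate 1, BP replicate 2, MP, MP+BP and PD+MP. In PD+MP, for example, 52.6% of cells with Reln and 44.9% of cells without held Dab1. The mean difference was 4.05 ± 2.13 points (SD, n = 5; exact two-sided sign-flip permutation test, p = 0.0625, the smallest that 5 tumors can give, so that no call was possible). The differences of Vldlr, Lrp8 and Fyn were 0.077 ± 0.27, 0.41 ± 1.17 and 0.49 ± 0.80 points, higher in 4 of 5 tumors each (exact sign-flip permutation, p = 0.56, 0.50 and 0.25). Clusters that differ in level within a tumor enter these shares. Lrp8 was lower in cells with Reln in BP replicate 1, by 1.56 points. The cluster highest in Reln there, cluster 18, held Lrp8 at 21.5 CPM, where the 7 clusters spanned 14.5 to 42.8 CPM. The part of clusters in this difference was not tested.

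The genes whose pattern was most like that of Reln over 38 sums of 10 named classes were ranked by Pearson's r of log2(CPM + 1), as a description across sums that share tumors and libraries. The 10 closest of 17961 genes were Mpped2 (r = 0.87), Aard (0.87), Kirrel3 (0.86), Erbb4 (0.86), Ppargc1a (0.84), Sel1l3 (0.84), Tceal3 (0.82), Npy (0.81), Sall3 (0.81) and Nell1 (0.81). Kirrel3 encodes a synaptic adhesion molecule, Erbb4 a neuregulin receptor, Npy a neuropeptide and Sall3 a zinc-finger transcription factor. Of the members, Dab1 had r = 0.63 (rank 356), Vldlr 0.49, Lrp8 0.17 and Fyn -0.57.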

How the data were processed

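Dissociated tumor tissue was profiled with droplet 3′ scRNA-seq, and the authors deposited raw UMI counts per gene and cell, filtered to cell barcodes with Cell Ranger 7.2.0 (version per the file headers) on mm10. Counting of intronic reads is not given in the sources used here. Cells with at least 750 genes and at most 25% mitochondrial counts were kept, as in the study, and cells with the highest simulated-doublet scores (scanpy 1.11.5) were removed up to 0.8% per 1000 cells, because the automatic threshold marked only 4 to 304 cells per tumor. Cells were clustered on 3000 features without pathway genes (30 components, 20 neighbors, Leiden resolution 1) and named from marker lists. The rule that left cluster 26 unnamed was set after the clusters were seen. UMI counts were summed per tumor and class, with at least 20 cells, and tested with edgeR 4.0.16 (quasi-likelihood, TMM, filterByExpr, Benjamini-Hochberg over all genes) with tumor as a block, or without a block for the BP label. Tumor pairing is by origin, since both classes of a pair came from 1 tumor. CPM intervals are exact Poisson and shares exact binomial intervals (95%), and cover counting error only. Between genes, levels were not compared. Alternatives were DESeq2 1.42.0, other scalings and filters, kept doublets, 1500 genes per cell, thinned sums, no block, pericyte-like cells alone and leaving out each tumor; naming clusters by marker count alone was added after seeing the data. The fits were tested on simulated counts. Named genes were the 5 members, up to 3 called genes per role of the pathway list with the largest log2 difference over stromal sums, and the 10 genes most like Reln. Members and lists were chosen with earlier results of these data known. Whether the BP tumors came from separate animals is not given in the sources used here, so p-values measure the spread between these samples.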

Additional observations from a re-analysis of the deposited data

Results flagged for a closer look

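Of 20 groups of 5 tumors (5 genes in 4 classes), 4 held a value whose gap to its nearest neighbor was large for the group's range. The rule flags about 1 in 20 groups when values are independent and normal. These CPM values are skewed and come from the same 5 tumors, so the 4 cannot be set against that rate. In SyS-like sums, Dab1 was at 410.4 CPM in PD+MP, with the nearest tumor at 106 CPM, and Vldlr was at 13.2 CPM in PD+MP, with the nearest at 7.54 CPM. In stromal sums, Vldlr was at 13.9 CPM in PD+MP, with the nearest at 1.02 CPM, and that tumor's stromal cells were mostly fibroblast-like (128 of 166) where those of the other tumors were mostly pericyte-like. In macrophage-like sums, Lrp8 was at 6.69 CPM in BP replicate 1, from 31 UMIs, with the nearest at 3.15 CPM. PD+MP was 1 tumor, so that its label, animal, sex and library cannot be told apart. The Y-linked gene Uty was among the leading genes of clusters 2 and 9, which came almost wholly from PD+MP.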

How the results depend on the processing

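Counts of called genes in this section leave out the clustering features. With those included, 3164 genes were higher and 2410 lower over stromal sums (edgeR, adjusted p under 0.05). The number of genes called over stromal sums was 4226, and it was 2151 with at least 10 counts in every sum and 2684 after thinning tumor-cell sums to stromal depth. Over endothelial-like sums it was 7749 and 3042 with at least 10 counts in every sum, and over macrophage-like sums 9242 and 4781; both settings test fewer genes. For the BP label it was 0, against 303 with DESeq2 and 0 to 358 when 1 tumor was left out, 358 being without MP. Without the replicate block, 4474 genes were called over stromal sums, and the block decided the call of Dab1 (adjusted p = 0.045 without it) and of Lrp8 (adjusted p = 0.25 without it; edgeR) over endothelial-like sums and of no other member. The co-detection difference of Vldlr ran from -0.0064 to 0.18 points when 1 tumor was left out and was -0.14 points at 4000 UMIs per cell, where those of Dab1, Lrp8 and Fyn were 6.64, 0.0071 and 1.36 points (higher in 5, 3 and 5 of 5 tumors; exact sign-flip permutation, p = 0.0625, 1 and 0.0625). The difference of Vldlr over endothelial-like sums ran from -0.52 to 0.16 when 1 tumor was left out, positive without BP replicate 1 (0.10) and without BP replicate 2 (0.16). With DESeq2 the Dab1 difference over endothelial-like sums was called (adjusted p = 4.1e-04), as was Vldlr over stromal sums (adjusted p = 0.015). The causes of these changes were not tested. Of the other values for single genes, 246 kept their direction and side of the threshold, 6 gained a call, 8 lost one and 3 moved. Rare classes had shallow sums: stromal sums held 677592 to 2737529 UMIs, and endothelial-like cells of PD+MP 475868.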
